A study of Mus musculus with 2 samples.

Results

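The C/EBP family and the GFI1 pair are transcription factors of myeloid cells, and their transcripts were measured here in mouse acute myeloid leukaemia. The set was defined by gene symbol and holds 8 genes (Cebpa, Cebpb, Cebpd, Cebpe, Cebpg, Cebpz, Gfi1 and Gfi1b), all 8 present among the 46095 entries of the count table. RNA sequencing covered leukaemia-initiating cells sorted from bone marrow of C57BL/6 mice aged 8 weeks, gated as positive for Mac1 and c-Kit. There was 1 library labelled wild type (P2x1-WT) and 1 labelled P2x1-KO, where P2X1 is an ATP-gated cation channel encoded by P2rx1. The protocol text also calls them P2X1-Scr and P2X1-KD, so the labels leave it unclear whether the gene was deleted or knocked down. How the leukaemia was started and the number of animals behind each library are not stated in the labels. With 1 library per group no difference below has a replicate check, and no p-value was computed. Intervals are exact 95% intervals for counting error only.

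C/EBP proteins bind DNA as pairs through a basic region and a leucine zipper. C/EBPα is required for the step from common myeloid to granulocyte and monocyte progenitors and slows division, C/EBPε drives the late steps of granulocyte maturation, and C/EBPβ and C/EBPδ act in stress-driven granulopoiesis, monocytes and inflammation. GFI1 and GFI1B are zinc finger repressors that recruit the demethylase KDM1A and its CoREST partners, GFI1 mainly in granulocyte progenitors and lymphoid cells and GFI1B in the erythroid and megakaryocytic lineages, and each can repress its own promoter and that of the other.

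The promoters of Cebpa, Cebpb and Gfi1b are shown because the transcripts behind them differed in opposite directions or by the widest ratio. Promoter windows were available for 5 of the 8 members in RefSeq (GRCm38.p6), and each sequence is the 250 bases before the first transcribed base, 5′ to 3′ on the strand of the gene, at chr7:35119043-35119292, plus strand, for Cebpa, chr2:167688665-167688914, plus strand, for Cebpb and chr2:28621983-28622232, minus strand, for Gfi1b. Capitals mark the C/EBP half-site TTGCG in the Cebp promoters and the GFI1 core AATC in that of Gfi1b, on either strand (CGCAA and GATT).
Cebpa promoter: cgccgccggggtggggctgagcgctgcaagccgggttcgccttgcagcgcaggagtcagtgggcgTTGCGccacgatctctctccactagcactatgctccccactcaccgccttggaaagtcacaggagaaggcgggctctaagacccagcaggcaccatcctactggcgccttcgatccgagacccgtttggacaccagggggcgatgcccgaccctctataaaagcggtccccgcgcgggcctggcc
Cebpb promoter: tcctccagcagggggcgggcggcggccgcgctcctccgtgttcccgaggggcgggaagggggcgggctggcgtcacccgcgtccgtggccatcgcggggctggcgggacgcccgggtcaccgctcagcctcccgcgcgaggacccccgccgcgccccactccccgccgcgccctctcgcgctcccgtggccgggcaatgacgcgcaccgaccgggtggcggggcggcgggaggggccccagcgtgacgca
Gfi1b promoter: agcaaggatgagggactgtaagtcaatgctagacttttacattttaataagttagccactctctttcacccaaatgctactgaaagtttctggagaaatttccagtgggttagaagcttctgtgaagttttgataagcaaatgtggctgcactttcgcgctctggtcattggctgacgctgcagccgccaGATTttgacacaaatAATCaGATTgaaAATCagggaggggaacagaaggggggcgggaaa
The Cebpa window held 1 C/EBP half-site, starting at base -185, and 14.5% of 32851 promoter windows of this length held at least 1. The Cebpb window held 0 half-sites and 0 GFI1 cores, with a GC content of 81.6%. The Gfi1b window held 4 GFI1 cores, starting at bases -60, -45, -40 and -33 and so within 31 bases. At least 1 AATC was found in 69.0% of windows and at least 4 in 7.04%. The core was not particular to Gfi1b among the members. The Gfi1 window before base 107725805 held 1 AATC, starting at base -200, and the Cebpg window 1, at base -90. The Gfi1 window before base 107724343 and the Cebpa window held 0. Neither window of Gfi1 nor that of Cebpg held a half-site. The full palindrome TTGCNNCAA, found in 1.74% of windows, and the longer GFI1 core AAATCNC, found in 10.3%, matched none of the members' windows. A match is a description of letters and not a measured binding site.

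The WT library held 14658620 counts and the other 9447894. P2rx1 itself had 27 counts in the WT-labelled library and 45 in the P2X1-KO-labelled library, a CPM ratio of 2.92 (1.78 to 4.90). CPM are counts scaled to a common library size with TMM factors (trimmed mean of M values), and each ratio is the CPM of the P2X1-KO-labelled library over that of the WT-labelled library. The targeted transcript was thus not lower in the P2X1-KO-labelled library. Counts per gene do not show whether that transcript was intact, so they cannot settle whether the labels hold. Every direction below is therefore between 2 libraries as labelled. The sort markers Itgam (4781 and 4481 counts) and Kit (207 and 177 counts) were present in both. The summed CPM of markers of other cells also differed, and their part in the results below was not tested. Mature neutrophil markers (6 of 6 detected) summed to 945 CPM in the WT-labelled library and 6386 CPM in the other, and monocyte and macrophage markers (6 of 6) to 80.7 and 635.5 CPM. Eosinophil markers were at 12.4 and 150.0 CPM with Ccr3 at 0 in both, mast cell and basophil markers at 34.3 and 42.6 CPM with Fcer1a at 0 in both, and stromal markers at 1.92 and 203 CPM with Col3a1 and Col1a2 at 0 in the WT-labelled library and Lepr and Cxcl12 at 0 in the other. B cell markers summed to 16.6 and 49.5 CPM with Ms4a1 at 0 in both. Erythroid, megakaryocyte and T cell markers summed to at most 4.62 CPM in either library, with Pf4, Ppbp, Cd3g and Cd8a at 0 in both, Cd3e at 0 in the WT-labelled library, and Klf1 and Cd3d at 0 in the other. In bulk RNA a different number of cells of a type cannot be told apart from a different amount of RNA per cell.

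Of the 8 genes, 4 leucine zipper genes (Cebpb, Cebpd, Cebpe and Cebpg) and the scarce Gfi1b were 2-fold or more higher in the P2X1-KO-labelled library, whereas Cebpa, Cebpz and Gfi1 were lower by less than 2-fold. Among the 10483 genes whose mean reached 5 CPM, 12.1% were 2-fold or more higher and 10.6% 2-fold or more lower. At that level 7 members were measured, of which 4 were 2-fold or more higher and 0 2-fold or more lower. Gfi1b was below it, at a mean of 2.20 CPM, and is read against the 13382 genes whose mean reached 1 CPM, of which 15.5% were 2-fold or more higher and 14% 2-fold or more lower. The whole interval lay beyond 2-fold for Cebpb, Cebpd and Cebpe, as it did in the higher direction for 9.37% of the genes at 5 CPM, and for Gfi1b, as for 10.2% of those at 1 CPM. The 3 lower members had intervals wholly below a ratio of 1, as did 43.7% of the genes at 5 CPM, so that this is a common result at these depths.

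**Figure D1:**
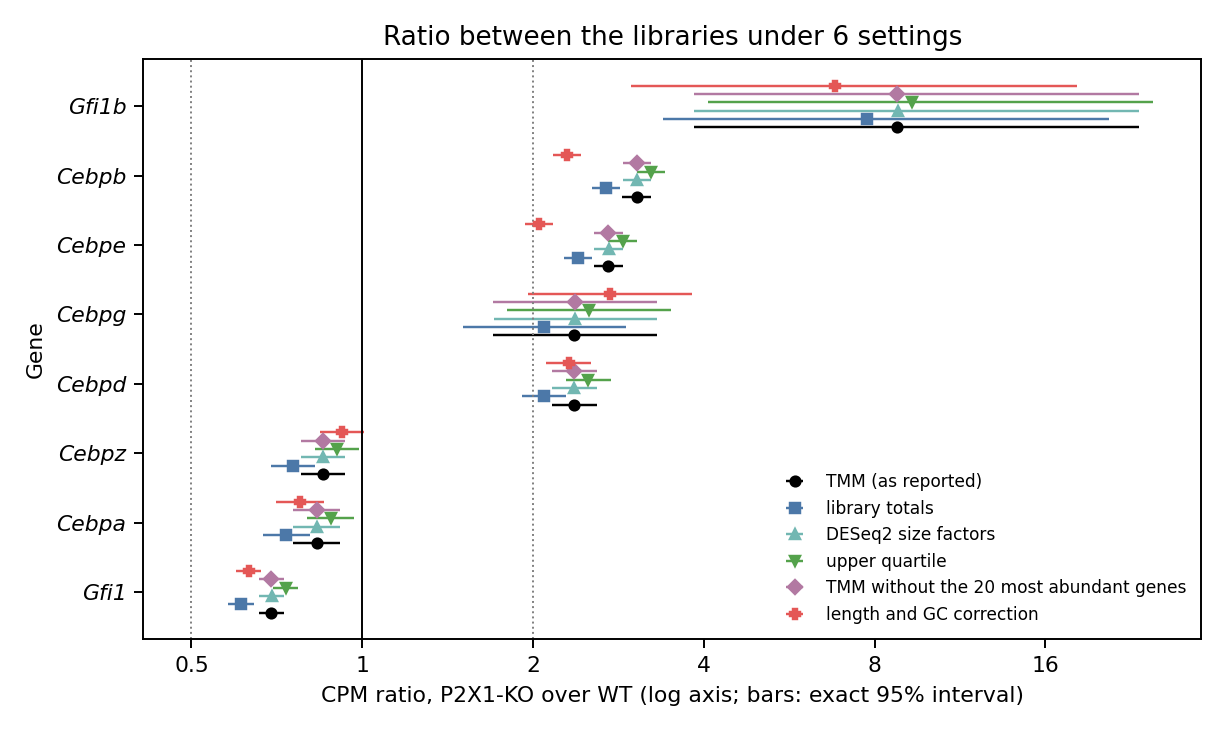
CPM ratio of the P2X1-KO-labelled library over the WT-labelled library for each gene, on a log axis, under TMM and 5 other settings, with exact 95% counting intervals; dotted lines mark 2-fold. All 6 points of Cebpb, Cebpd, Cebpe, Cebpg and Gfi1b lie above 2, and all those of Cebpa, Cebpz and Gfi1 lie between 0.5 and 1.

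Cebpa, the founding member of the family, had 1330 counts in the WT-labelled library and 630 in the P2X1-KO-labelled library. These are 85.3 CPM (80.8 to 90.0) and 70.9 CPM (65.5 to 76.7), and the intervals do not overlap. The ratio was 0.831 (0.755 to 0.915), a 1.20-fold lower level. Cebpa is a gene of a single exon on chromosome 7 from 35119293 to 35121928 (mm10, plus strand). Its log2 difference of -0.26 was above that of 40.3% of the genes tested.

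Cebpb, the inflammation-responsive member, had 1887 and 3273 counts, or 121 and 368.5 CPM. Its ratio was 3.04 (2.88 to 3.22), above the log2 difference of 94.1% of the genes tested. Cebpb, likewise of a single exon, lies on chromosome 2 from 167688915 to 167690418 (plus strand). The P2X1-KO-labelled library was the higher by a margin far outside the counting intervals of 116 to 127 CPM in the WT-labelled library and 356 to 381 CPM in the other. Annotated exons of Tmem189 on the opposite strand cover 312 bases of Cebpb, and since the strand setting of the counting is not given, some reads may belong to either gene; Tmem189 had 1057 and 802 counts.

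Cebpe, the late granulocytic member, was the other abundant gene of the family, with 1913 counts in the WT-labelled library and 2960 in the P2X1-KO-labelled library. That is 123 CPM (117 to 128) against 333 CPM (321 to 345.5), a ratio of 2.72 (2.56 to 2.88). It stood close to Cebpb in both libraries, and no other annotated gene overlaps it on chromosome 14, where it lies from 54710360 to 54712174 (minus strand). After a correction for exon length and GC content the ratio of Cebpe was 2.05 (1.93 to 2.17) and that of Cebpb 2.30 (2.17 to 2.43), so the interval of Cebpe then reached below 2-fold.

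Cebpd, induced with Cebpb in acute inflammation, had 836 and 1126 counts, or 53.6 CPM (50.05 to 57.4) and 127 CPM (119 to 134). The ratio was 2.36 (2.16 to 2.59), and with scaling by library totals it was 2.09 (1.91 to 2.29). Cebpd lies on chromosome 16 from 15887286 to 15891031 (plus strand), where exons of Spidr on the opposite strand share 562 bases with it. Spidr had 374 and 212 counts, fewer than Cebpd in both libraries.

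Cebpg, a short C/EBP protein that lacks an activation domain and pairs with the others, was far less abundant, with 66 and 89 counts. Its 4.23 CPM (3.27 to 5.39) and 10.02 CPM (8.05 to 12.3) gave a ratio of 2.37 (1.70 to 3.30), whose interval includes 2-fold. Cebpg lies on chromosome 7 from 35046422 to 35056573 (minus strand), 62719 bases from Cebpa, and these neighbours differed in opposite directions between the libraries.

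Gfi1, the granulocytic repressor, was the most abundant member by CPM in the WT-labelled library, with 5242 counts there and 2066 in the P2X1-KO-labelled library. These are 336 CPM (327 to 345) and 233 CPM (223 to 243), and the intervals do not overlap. The ratio was 0.692 (0.657 to 0.728), a 1.45-fold lower level, and the log2 difference of -0.53 was above that of 26.3% of the genes tested. Gfi1 lies on chromosome 5 from 107716657 to 107726036 (minus strand). The non-coding gene A430072P03Rik on the opposite strand shares 101 exon bases with it and had 451 and 131 counts, also fewer in the P2X1-KO-labelled library.

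Gfi1b, the erythroid and megakaryocytic paralog, was close to the limit of detection. It had 7 counts in the WT-labelled library and 35 in the P2X1-KO-labelled library, or 0.449 CPM (0.180 to 0.925) and 3.94 CPM (2.75 to 5.48). The ratio was 8.78, with an interval of 3.84 to 23.4 that spans a wide range because it rests on 7 counts. Gfi1b lies on chromosome 2 from 28609450 to 28621982 (minus strand) with no overlapping gene in the annotation.

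Cebpz carries the family name but no leucine zipper: it encodes a nucleolar protein related to the yeast ribosome assembly factor Mak21, also called Noc1. It had 1493 and 726 counts, or 95.8 CPM (91.0 to 101) and 81.7 CPM (75.9 to 87.9), a ratio of 0.853 (0.780 to 0.933). The intervals of the levels do not overlap, but after the length and GC correction the ratio was 0.922 (0.843 to 1.01), and its interval included 1. Cebpz lies on chromosome 17 from 78919006 to 78937066 (minus strand) and shares 171 exon bases with Cebpzos on the opposite strand, which had 294 and 220 counts and a ratio of 1.31 (1.10 to 1.57).

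**Figure D2:**
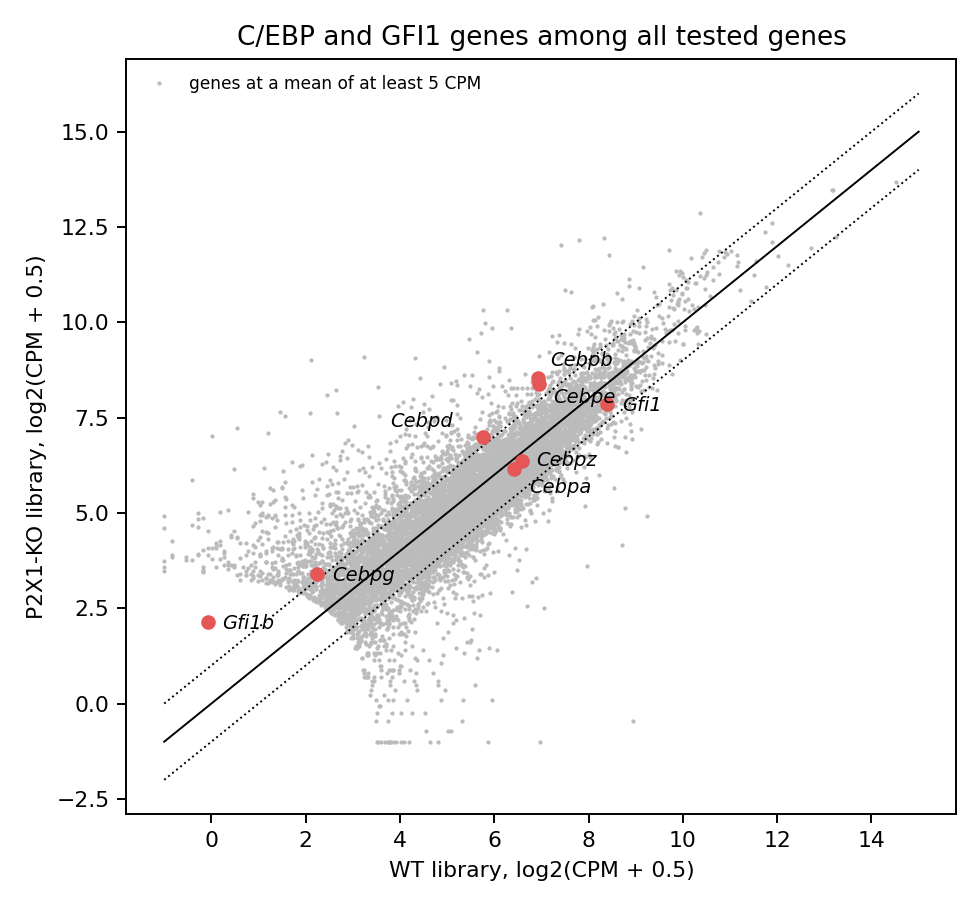
Level of each gene whose mean reached 5 CPM in the WT-labelled library (x axis) and the P2X1-KO-labelled library (y axis), as log2(CPM + 0.5), in grey, with the 8 C/EBP and GFI1 genes in red, Gfi1b included although its mean of 2.20 CPM is below that level. The solid line marks equal levels and the dotted lines 2-fold; Cebpb and Cebpe lie together above the upper dotted line, and Cebpa, Cebpz and Gfi1 between the solid and lower dotted lines.

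Levels of different genes were compared as CPM per kilobase of exon. In the WT-labelled library the order was Gfi1 (105 per kilobase, 103 to 108), Cebpe (98.9, 94.5 to 103), Cebpb (80.5), Cebpa (32.4), Cebpz (20.6), Cebpd (14.3), Cebpg (0.753) and Gfi1b (0.245). The single-gene intervals of Gfi1 and Cebpe overlapped, but the ratio of their levels per kilobase was 1.07 (1.01 to 1.12), so these neighbours differed narrowly beyond counting error, as did the other neighbours there. In the P2X1-KO-labelled library the order was Cebpe (268.5 per kilobase), Cebpb (245), Gfi1 (73.0), Cebpd (33.8), Cebpa (26.9), Cebpz (17.5), Gfi1b (2.15) and Cebpg (1.78), and the intervals of Gfi1b (1.5 to 2.995) and Cebpg (1.43 to 2.19) overlapped. Their ratio per kilobase was 1.21 (0.793 to 1.805), so their order was not settled at this depth. Gfi1 thus stood first in the WT-labelled library and below Cebpe and Cebpb in the other, while Cebpd and Cebpa exchanged order. Using the longest transcript in place of all exons changed the rank of 0 members in either library.

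**Figure D3:**
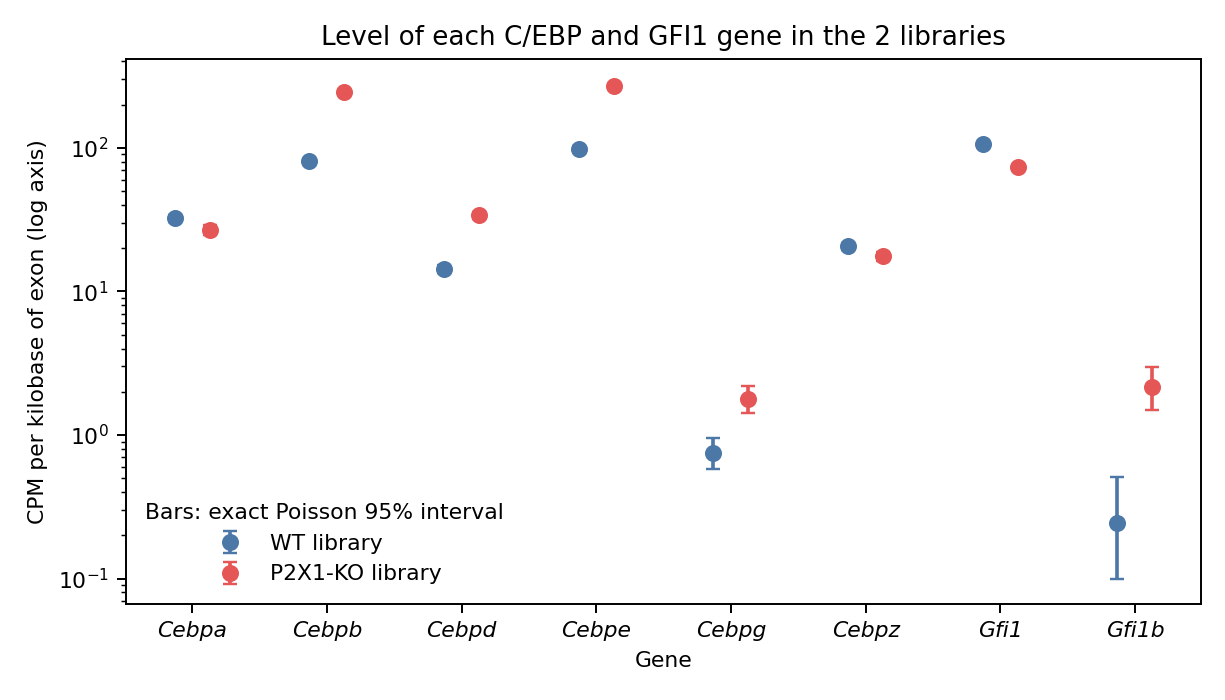
Level of each gene as CPM per kilobase of exon (log axis) in the WT-labelled library (blue) and the P2X1-KO-labelled library (red), with exact Poisson 95% intervals. Gfi1 is at 105 and 73.0, Cebpe at 98.9 and 268.5, and the widest intervals are those of Gfi1b.

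Changes of the ratio between 2 members do not depend on library scaling, but they do depend on a length and GC correction, which moves each gene by its own amount. Of the 28 pairs, 24 had an interval for the change of this ratio between libraries that excluded 1. These pairs reuse the same 8 genes and are not independent. The share among pairs of all genes was not computed, so the count is not read as a trait of these members. Single-gene intervals wholly below 1 were common at these depths, at 43.7% of the genes at 5 CPM. The counts of Cebpb were 1.42 times those of Cebpa in the WT-labelled library and 5.195 times in the P2X1-KO-labelled library, a 3.66-fold higher ratio (3.27 to 4.10). Cebpe against Gfi1, the late granulocytic activator against the repressor, had 0.365 times its counts in the WT-labelled library and 1.43 times in the other, a 3.93-fold higher ratio (3.63 to 4.24). For Cebpb against Gfi1 the ratio was 4.40-fold higher (4.08 to 4.75), the order of these 2 genes by counts being opposite in the 2 libraries.

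After the length and GC correction 24 pairs again excluded 1, but 2 pairs changed sides and 1 reversed. Cebpa against Cebpz then changed 0.843-fold (0.739 to 0.962), and Cebpb against Cebpd went from 1.29 (1.16 to 1.43) to 0.994 (0.893 to 1.11). Cebpd against Cebpe, the reversed pair, went from 0.8705 (0.782 to 0.9697) to 1.13 (1.01 to 1.26). Cebpb against Gfi1 kept its direction but changed less, 3.64-fold (3.37 to 3.93), as did Cebpe against Gfi1, 3.25-fold (3.005 to 3.51). Cebpa against Cebpb went from 0.273 (0.244 to 0.305) to 0.339 (0.303 to 0.379), also a smaller change in the same direction.

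Without the correction the remaining 4 pairs were not separated by counting error. Cebpa against Cebpz stood at 0.891 and 0.868, so the ratio changed 0.974-fold (0.854 to 1.11). Cebpg kept within counting error of Cebpb (1.29, 0.916 to 1.80), Cebpd (0.999, 0.706 to 1.41) and Cebpe (1.15, 0.817 to 1.60), where each value is the change of that gene's counts relative to those of Cebpg. These intervals still allow a change of up to 1.80-fold for Cebpb against Cebpg, because Cebpg had few counts. Cebpb against Cebpe, both abundant, differed little but beyond counting error, at 0.986 and 1.11 (a 1.12-fold change, 1.03 to 1.22). Gfi1 had 749 times the counts of Gfi1b in the WT-labelled library and 59.0 times in the P2X1-KO-labelled library, a 12.7-fold lower ratio (5.54 to 33.9).

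The 5 leucine zipper genes together had 6032 counts (387 CPM) in the WT-labelled library and 8078 counts (909 CPM) in the P2X1-KO-labelled library, a ratio of 2.35 (2.27 to 2.43). Cebpa made up 22.1% of these counts (21.01 to 23.1) in the WT-labelled library and 7.80% (7.22 to 8.40) in the other. Cebpb made up 31.3% (30.1 to 32.5) and 40.5% (39.4 to 41.6), and Cebpe 31.7% (30.5 to 32.9) and 36.6% (35.6 to 37.7). The shares of Cebpd, 13.9% in both libraries, and of Cebpg, 1.09% and 1.10%, had overlapping intervals. Per exon length the share of Cebpa was 14.3% and 4.67%.

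**Figure D4:**
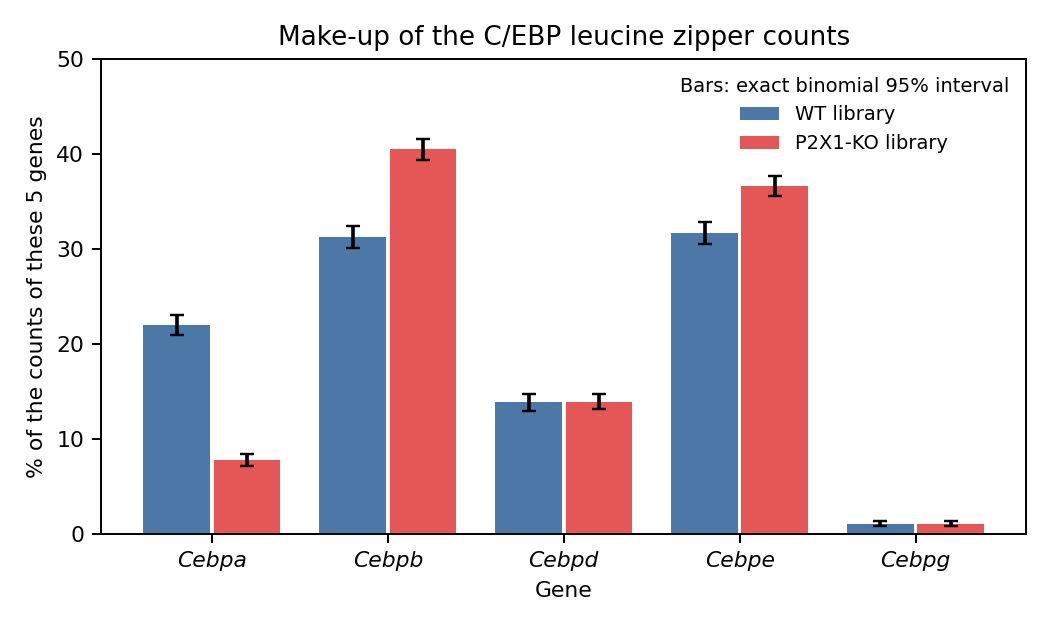
Share of each leucine zipper gene in the summed counts of all 5 (6032 in the WT-labelled library, blue, and 8078 in the P2X1-KO-labelled library, red), with exact binomial 95% intervals. Cebpa is at 22.1% and 7.80% of the counts, and Cebpd at 13.9% in both.

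Among protein-coding genes, those nearest to Cebpb, the member with the widest log2 difference among those at 5 CPM, were Ramp1, encoding a receptor activity modifying protein, at a distance of 0.16 on the log2 scale over the 2 libraries, Emp3, encoding a membrane protein, at 0.22, and Selplg, encoding the P-selectin ligand of leukocytes, at 0.26. They had 110 and 348, 141 and 380.0, and 120.1 and 308 CPM.

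Lists of genes that work with these factors, or that are known to respond to them, were read against all 13382 genes whose mean reached 1 CPM, whose median log2 difference was -0.06 and of which, as above, 15.5% were 2-fold or more higher and 14% 2-fold or more lower. Of the 22 measured of 25 genes for partners and regulators of C/EBP proteins, 1 was 2-fold or more higher and 2 2-fold or more lower (median 0.02) (0 and 3 when the libraries were scaled by their totals, 2 and 2 with upper-quartile scaling). Trib1, encoding a pseudokinase that directs C/EBPα to degradation, was 2.09-fold higher (1.775 to 2.45), at 18.02 and 37.6 CPM. Spi1, encoding the ETS factor that acts with C/EBPα on myeloid genes, had 535 and 1034 CPM, a ratio of 1.93 (1.88 to 1.99), and Nfil3, encoding a repressor of the same leucine zipper class, a ratio of 1.80 (1.61 to 2.03). Sox4, a progenitor gene that C/EBPα represses, was 2.49-fold lower (1.85 to 3.41) and Atf5, encoding a stress-response factor, 2.25-fold lower (1.94 to 2.62). Cdk2, whose kinase C/EBPα can inhibit, was 1.98-fold lower (1.80 to 2.19).

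Granule genes, many of which need C/EBPα or C/EBPε, were mostly higher in the P2X1-KO-labelled library. Of 10 secondary and later granule genes, 8 were 2-fold or more higher and 0 2-fold or more lower (median 2.31), or 7 and 0 both with scaling by library totals and with the length and GC correction. Mmp9, a gelatinase gene, had a ratio of 7.54 (6.85 to 8.31), Cybb, the oxidase subunit gene, 6.46 (6.00 to 6.95) and Chil3, a chitinase-like gene, 5.65 (5.56 to 5.74). Of 7 primary granule genes, 3 were 2-fold or more higher and 0 2-fold or more lower (median 0.93), or 3 and 1 with scaling by library totals and 4 and 0 with upper-quartile scaling. The 3 with TMM were Cst7, encoding an inhibitor of cathepsins (14.6), Ctsc, encoding the protease that activates granule proteases (11.2), and Ms4a3, a membrane protein gene of granulocyte and monocyte progenitors (6.01, 5.55 to 6.52), whereas Mpo, encoding myeloperoxidase, was 1.88-fold lower (1.77 to 1.995). The granule protease genes Elane, Prtn3 and Ctsg, named after their values were seen, lay within 2-fold with TMM. Their ratios were 1.80 (1.77 to 1.83), 1.90 (1.86 to 1.95) and 1.73 (1.68 to 1.78). The medians of both lists differed in the same direction as the mature neutrophil marker sum of 945 and 6386 CPM, with which the later granule list shares Mmp8, and the part of that sum was not tested.

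Of 6 growth factor and cytokine receptor genes, 2 were 2-fold or more higher and 0 2-fold or more lower (median 0.69). Csf1r, the macrophage growth factor receptor gene, had 40.7 and 395 CPM, a ratio of 9.72 (8.93 to 10.6), and Il6st, encoding the shared signalling chain of the interleukin 6 family, had a ratio of 2.31 (1.54 to 3.50). Csf3r, the granulocyte growth factor receptor gene and a known C/EBP target, had a ratio of 1.65 (1.54 to 1.77), and Csf2rb was 1.22-fold lower (1.15 to 1.29). Of 13 inflammatory genes that C/EBPβ and C/EBPδ can activate, 5 were measured, 4 were 2-fold or more higher and 0 2-fold or more lower (median 1.84). The endotoxin co-receptor gene Cd14 had a ratio of 4.18 (3.67 to 4.77), the acute phase gene Orm1 4.72 (3.05 to 7.50) and the cytokine gene Il1b 4.10 (2.79 to 6.12). Il6, Tnf, Ptx3 and Il12b had 0 counts in both libraries, which allows up to 0.192 CPM in the WT-labelled library and 0.338 CPM in the other, taking 3 counts as the floor. The last 4 of the 13, named after their values were seen, had few counts in the WT-labelled library and 0 in the other: Ptgs2 20, Nos2 5, Csf3 3 and Arg1 2. Against that floor Ptgs2, the inducible cyclooxygenase gene, was at least 3.80-fold lower in the P2X1-KO-labelled library, and its exact interval starts at 2.81-fold lower, so this list did not differ in 1 direction only.

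Genes that GFI1 is known to repress differed both ways. Of 14 measured, 7 were 2-fold or more higher and 2 2-fold or more lower, or 6 and 3 with scaling by library totals and 7 and 3 with the length and GC correction (TMM median 0.97). Nab2, a corepressor gene of EGR factors, had 25 and 278 counts, a ratio of 19.5 (12.9 to 30.7). Id2, encoding an inhibitor of helix-loop-helix factors, had 33.3 and 339 CPM, a ratio of 10.2 (9.28 to 11.2), and Csf1r, also a marker of the monocyte list, belongs here too. In the other direction Ets1 was 3.72-fold lower (2.96 to 4.72) and Id1 1.89-fold lower (1.74 to 2.05). The monocyte and macrophage markers summed to 80.7 and 635.5 CPM in the same libraries, of which Csf1r alone made up 40.7 and 395 CPM. The part of these markers in this list was not tested.

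The 12 genes for corepressors and partners of GFI1 all lay within 2-fold (median -0.37), except that Gse1 was 2.16-fold lower when scaled by library totals. With TMM, Gse1, a subunit gene of the KDM1A complex, was 1.91-fold lower (1.78 to 2.05), Zbtb17, encoding the partner protein MIZ-1, 1.62-fold lower (1.43 to 1.83), and Rcor1, encoding CoREST, 1.53-fold lower (1.38 to 1.70). Phf21a and Hdac2 had ratios of 1.12 (0.999 to 1.25) and 1.05 (0.9502 to 1.15), whose intervals include 1. Among genes of the erythroid and megakaryocytic setting of GFI1B, 2 of 12 reached a mean of 1 CPM. Nfe2, which is also expressed in myeloid cells, had 160.0 and 402 CPM, a ratio of 2.52 (2.39 to 2.65), and Itga2b 2.44 and 3.83 CPM, a ratio of 1.57 (0.959 to 2.56). Gfi1b was thus read in libraries where Pf4 and Epor had 0 counts and where Gata1 had 4 and 0.

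Genes for nucleolar proteins that work with CEBPZ, or beside it in ribosome assembly, were mostly lower. Of 8, 0 were 2-fold or more higher and 4 2-fold or more lower (median -0.91), or 0 and 3 with the length and GC correction. Nop56, a core protein gene of methylation guide complexes, was 2.12-fold lower (2.02 to 2.23), Nop14, of the small subunit precursor, 2.23-fold lower (2.01 to 2.49) and Pdcd11, the mammalian counterpart of yeast Rrp5, 2.20-fold lower (2.001 to 2.42). Cebpz itself was 1.17-fold lower (1.07 to 1.28).

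**Figure D5:**
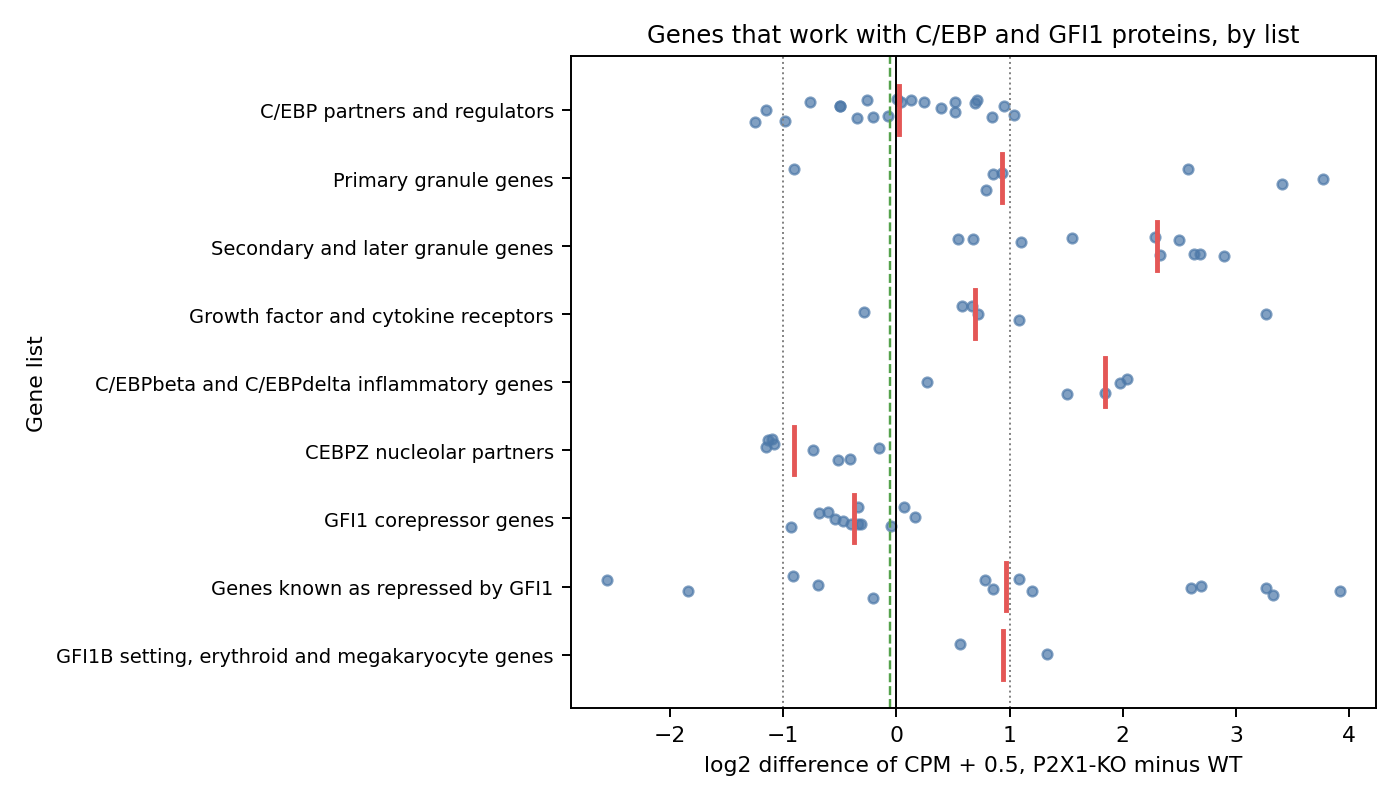
Log2 difference (CPM + 0.5, P2X1-KO-labelled library minus WT-labelled library) of each measured gene of the 9 lists, 1 point per gene, with the list median as a red bar; dotted lines mark 2-fold and the dashed green line the median of all genes whose mean reached 1 CPM, -0.06. Medians run from -0.91 for the nucleolar partners of CEBPZ to 2.31 for secondary and later granule genes.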

How the data were processed

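The table the authors deposited gives unnormalized integer counts per gene symbol for 2 libraries. Per the submitters' processing notes, HISAT2 2.0.4 was the aligner and mm10 the build. Neither counter, annotation nor strand setting is stated there. The members and gene lists were chosen with earlier results of these data known. The ratios between members within a library were added after their counts were seen. Counts were scaled by TMM (edgeR 4.0.16, R 4.3.3), with effective library sizes of 15591519 (WT) and 8882591 (P2X1-KO). Log2 differences used log2(CPM + 0.5), which understates those of low genes. Ratios used no pseudocount, with Clopper-Pearson intervals of the counts given their sum. PCR copies are not independent molecules, so where they were counted the intervals are too narrow even for counting error. The intervals cover no other variation. The calculation was tested on simulated counts with counting error only and few changed genes. That does not test the scaling under changes as wide as these, or effects of length and GC content. From each list up to 3 genes per direction were named, by the interval bound nearest to no change; some are not reported here. Positions and exon lengths came from GENCODE M21 (the same assembly), matched for 92.6% of genes whose mean reached 1 CPM; the listed Cop1 was matched as Rfwd2. Each GC content was that of the longest transcript. The table's 27 date-like entries (0.147% and 0.110% of counts) stayed in the totals. Protein sequences were not used here, so the planned protein identities were not computed.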

Additional observations from a re-analysis of the deposited data

How the results depend on the processing

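No paired analysis was possible because each group has 1 library, and for the same reason no replicate could be left out. All 8 genes kept their direction under 4 other scalings, the length and GC correction and pseudocounts of 1 and 0.1 CPM. Scaling by library totals lowered every log2 ratio by 0.18, and the higher share of genes 2-fold or more apart was then 38.7%, against 53.4% with TMM. With totals the log2 differences were -0.44 for Cebpa, 1.42 for Cebpb, 1.06 for Cebpd, 1.26 for Cebpe, -0.40 for Cebpz and -0.71 for Gfi1, and the list medians -0.15 for C/EBP partners (0.02 with TMM), -1.09 for CEBPZ partners and -0.54 for GFI1 corepressors. Upper-quartile scaling gave 1.69 for Cebpb and -0.45 for Gfi1. The length and GC correction gave 1.20 for Cebpb, 1.03 for Cebpe and -0.66 for Gfi1, and medians of 1.87 for later granule genes and 1.32 for inflammatory genes. With a minimum of 5 CPM the median of the GFI1B list was 1.33, from 1 gene. The genes 2-fold or more higher and lower numbered 1271 and 1110 at 5 CPM, 2074 and 1870 at 1 CPM, and 3604 and 6484 with no minimum, as more genes were tested. Why scaling and correction moved the values was not tested. The pairs of members whose change of ratio excluded 1 numbered 24 without and 24 with the length and GC correction, an alternative chosen after seeing the data. No such share was computed for pairs of all genes. Depth limits Cebpg and Gfi1b most.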
